A study of Homo sapiens with 4 samples.

Results

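The genes described here are 9 genes that make, bind or break down hyaluronan, taken by name from the 58676 genes of a read count table: HAS2, HAS3, HAPLN1, VCAN, ACAN, TNFAIP6, CD44, HMMR and CEMIP. The table holds 4 RNA sequencing libraries of U2OS, a human osteosarcoma cell line. The 2 control libraries came from cells given sdAb con, a control single-domain antibody (sdAb, a small antibody fragment made of a single variable domain), and the 2 others, named M11, from cells given an anti-MN1 sdAb. Cells of both groups were kept in DMEM with fetal bovine serum and antibiotics, and both groups carry the same label of drug treatment, so no library comes from untreated cells. The antibody dose, the exposure time, how the antibody reached the cells and whether replicate libraries stem from separate cultures are not stated in the sources used here. The p-values therefore measure only the spread between libraries, which may be technical.

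Hyaluronan is an unsulfated sugar chain of alternating glucuronic acid and N-acetylglucosamine. The HAS enzymes in the plasma membrane make it from the matching UDP-sugars and push it out of the cell. Outside, lecticans such as aggrecan and versican bind along the chain, and a link protein clamps each of them in place, as in cartilage, where these aggregates hold water. Cells hold on to the chain through receptors such as CD44, and hyaluronidases and CEMIP cut it.

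Among the 9 genes, the link protein gene HAPLN1 and the aggrecan gene ACAN were lower under anti-MN1 sdAb, and the receptor gene CD44 and TNFAIP6 were higher. The synthase genes HAS2 and HAS3, VCAN, HMMR and CEMIP did not pass the test. All 9 had enough counts to be tested. That makes 4 of 9 called, or 44.4%, at a Benjamini-Hochberg adjusted p from edgeR's quasi-likelihood fit over all 17524 tested genes under 0.05. Over all tested genes 45.3% were called, 23.7% higher and 21.6% lower, so the share called among the 9 was close to that of all genes. Their median log2 fold change (anti-MN1 over control) was -0.09, and that of all tested genes was -0.004.

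**Figure D1:**
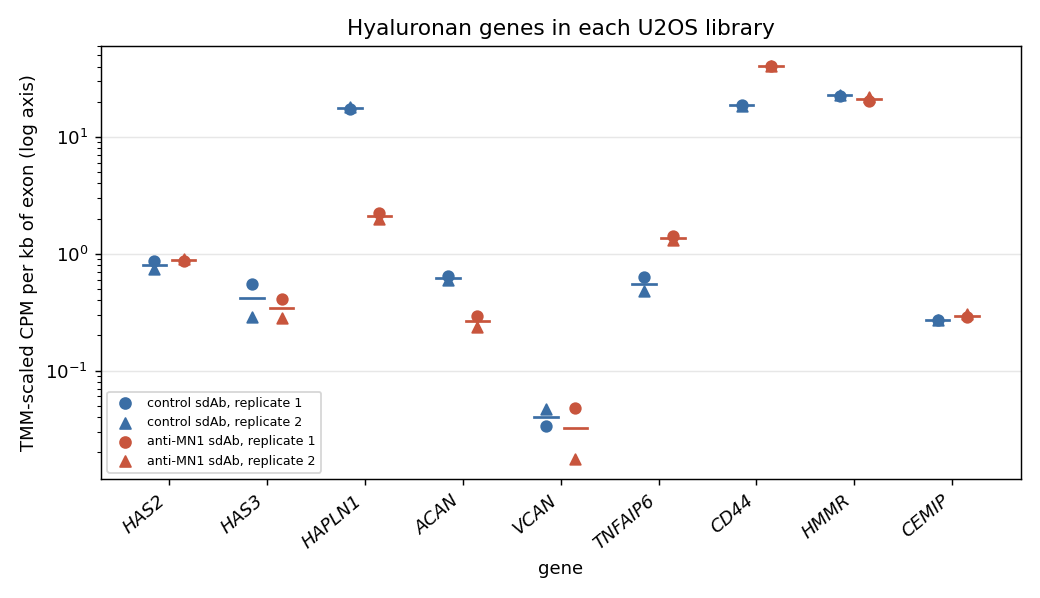
Levels of the 9 genes in each library, as TMM-scaled CPM per kb of exon on a log axis, with circles for replicate 1, triangles for replicate 2 and a bar at each group's mean. HAPLN1 lies near 17.6 under sdAb con and 2.10 under anti-MN1 sdAb, CD44 near 18.7 and 40.6, and HMMR near 22.7 and 21.3.

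Levels are CPM, read counts relative to library size, after TMM (trimmed mean of M values) scaling. Levels of different genes are compared only after division by the exonic length in kb. That length covers all annotated exons of a gene together, 10 kb for CD44 and 3.94 kb for HMMR. Which transcripts were in use was not read, and the order of genes depends on these lengths. In CPM alone the control means were 187 for CD44, 122 for HAPLN1 and 89.5 for HMMR. On the per-kb scale, HMMR stood highest in the controls at 22.7, ahead of CD44 at 18.7 and HAPLN1 at 17.6. The other members lay far below. HAS2 stood at 0.803, ACAN at 0.624, TNFAIP6 at 0.553, HAS3 at 0.418 and CEMIP at 0.271, and VCAN was lowest at 0.0402 CPM per kb. The control libraries of TNFAIP6, at 0.629 and 0.477, overlapped those of both ACAN and HAS3, so the place of TNFAIP6 beside them is not set. ACAN, at 0.648 and 0.600, lay above HAS3, at 0.551 and 0.285. With the anti-MN1 sdAb the order on this scale began with CD44 at 40.6, followed by HMMR at 21.3 and HAPLN1 at 2.10, while TNFAIP6 at 1.36 stood above HAS2 at 0.890. HAS3, CEMIP and ACAN overlapped at the bottom of that order, above VCAN at 0.0324.

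HAPLN1 encodes the cartilage link protein, which ties lecticans to hyaluronan (ENSG00000145681, chromosome 5, 83637805 to 83721613, minus strand, GRCh38). HAPLN1 stood at 120 and 124 CPM under sdAb con and 15.4 and 13.8 CPM under anti-MN1 sdAb. Every anti-MN1 value lay far below both controls. The log2 fold change was -3.06 ± 0.07 (SE, n = 2 per group), and the adjusted p in edgeR was 2.17e-99, or 8.6e-25 without robust estimation of the prior spread. Of the 17524 tested genes, 36 had a lower log2 fold change. The ratio of CD44 to HAPLN1, both per kb, was 1.10 and 1.03 under sdAb con and 18.4 and 20.3 under anti-MN1 sdAb.

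ACAN encodes aggrecan, the large lectican of cartilage (ENSG00000157766, chromosome 15, 88803442 to 88875354, plus strand). It was counted 114 and 113 times under sdAb con and 50 and 40 times under anti-MN1 sdAb, or 7.07 and 6.54 against 3.20 and 2.58 CPM. The groups did not overlap. ACAN fell 2.35-fold, with a log2 fold change of -1.23 ± 0.23 (SE, n = 2 per group) and an adjusted p of 9.33e-07 in edgeR.

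VCAN encodes versican, the lectican of loose connective tissue (ENSG00000038427, chromosome 5, 83471465 to 83582303, plus strand). It was barely expressed in these cells, with 8 and 12 counts under sdAb con and 11 and 4 under anti-MN1 sdAb. These values overlap. At this depth the 95% interval of its log2 fold change ran from -1.55 to 0.94, which leaves room for a change in either direction within that range.

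TNFAIP6 encodes TSG-6, a secreted protein induced by inflammatory cytokines that moves heavy chains of inter-alpha-inhibitor onto hyaluronan (ENSG00000123610, chromosome 2, 151357592 to 151380048, plus strand). It had few reads, 16 and 13 under sdAb con and 35 and 32 under anti-MN1 sdAb, or 0.993 and 0.753 against 2.24 and 2.07 CPM. Both anti-MN1 values lay above both controls. TNFAIP6 rose 2.46-fold, with a log2 fold change of 1.30 ± 0.42 (SE, n = 2 per group) and an adjusted p of 0.00635 in edgeR. Without control replicate 2 the log2 fold change was 1.11 and the call was lost (adjusted p = 0.0685), and over all alternatives the adjusted p ran from 0.00425 to 0.0685.

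CD44 encodes the main cell-surface receptor for hyaluronan (ENSG00000026508, chromosome 11, 35138870 to 35232402, plus strand). Its level was 189 and 184 CPM under sdAb con and 408 and 404 CPM under anti-MN1 sdAb. The libraries of a group lay close together and the groups far apart. CD44 rose 2.17-fold (95% interval 2.07 to 2.29), a log2 fold change of 1.12 ± 0.04 (SE, n = 2 per group) for which edgeR gave an adjusted p of 1.25e-75, or 2.86e-21 without the robust prior. Counts per gene do not tell its standard form from the forms with variant exons.

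HMMR, also called RHAMM, encodes a hyaluronan-binding protein that also sits on the mitotic spindle (ENSG00000072571, chromosome 5, 163460203 to 163491945, plus strand). Its level was 88.8 and 90.1 CPM under sdAb con and 80.8 and 87.1 CPM under anti-MN1 sdAb. Both anti-MN1 values lay slightly below both controls, but the log2 fold change of -0.09 (95% interval -0.20 to 0.02) did not pass (adjusted p = 0.172 in edgeR). The call depended on the scaling. With upper-quartile factors HMMR had a log2 fold change of -0.18 and an adjusted p of 0.00515, and with library totals alone -0.17 and 0.00658. The ratio of CD44 to HMMR, both per kb, was 0.839 and 0.805 under sdAb con and 1.99 and 1.83 under anti-MN1 sdAb. Its absolute size depends on the exonic lengths used.

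**Figure D2:**
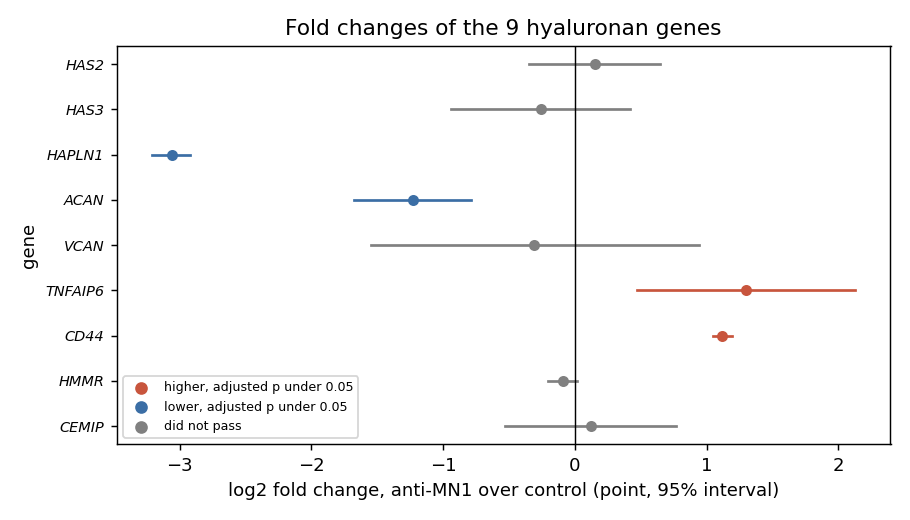
Log2 fold change of each of the 9 genes, anti-MN1 over control, as a point with its 95% interval, coloured by whether the adjusted p was under 0.05. HAPLN1 at -3.06 and ACAN at -1.23 lie left of 0, TNFAIP6 at 1.30 and CD44 at 1.12 lie right of it, and the intervals of the other 5 genes include 0.

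HAS2 encodes the synthase of long hyaluronan chains (ENSG00000170961, chromosome 8, 121612116 to 121641390, minus strand). It was low, with 58 and 54 counts under sdAb con and 57 and 59 under anti-MN1 sdAb, or 3.60 and 3.13 against 3.65 and 3.81 CPM. The log2 fold change was 0.15 (95% interval -0.35 to 0.65; adjusted p = 0.667 in edgeR), an interval from 0.783-fold to 1.57-fold. HAS3, a related synthase gene (ENSG00000103044, chromosome 16, 69105564 to 69118719, plus strand), had 47 and 26 counts under sdAb con and 34 and 23 under anti-MN1 sdAb. Its groups overlapped and its log2 fold change was -0.26 (95% interval -0.94 to 0.42; adjusted p = 0.571 in edgeR), with the sign turning to 0.29 without control replicate 1. HAS1, the remaining synthase gene, had 2 counts in control replicate 1 and 0 in the other 3 libraries, where the upper limit that a count of 0 leaves (3 counts, counting error only) is 0.174 to 0.194 CPM by library. The antisense transcript HAS2-AS1 had 6 to 11 counts per library and was not tested. Summed over the HAS genes, the level was 1.47 and 1.03 CPM per kb under sdAb con and 1.28 and 1.19 under anti-MN1 sdAb, which overlap.

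CEMIP encodes a protein needed for hyaluronan breakdown in skin fibroblasts (ENSG00000103888, chromosome 15, 80779343 to 80951776, plus strand). It was counted 33 and 36 times under sdAb con and 34 and 36 times under anti-MN1 sdAb. These counts are nearly equal. The log2 fold change was 0.12 (95% interval -0.53 to 0.77; adjusted p = 0.794 in edgeR), so a change of up to 1.71-fold upward lies within the interval.

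Upstream sequence was read for the 8 of 9 members found in the RefSeq promoter table (GRCh38.p14), all but HAS2, and 6 short motifs were searched on both strands in the 250 bases before each RefSeq start. The motifs were AP-1 (TGANTCA, found in 6.57% of 35116 promoters), the antioxidant response element core (TGACNNNGC, 10.9%), the interferon response element core (GAAA, then GAAA again after NN, 3.02%), the cell cycle CHR element (TTTGAA, 13.3%), the CCAAT box (CCAAT, 32.0%) and the TATA box (TATAAA, 10.7%). None of these was found for HAPLN1, ACAN, VCAN or HAS3. The windows of 5 members, HAPLN1, VCAN, CD44, HMMR and CEMIP, overlap annotated exons of the same gene, and those of HAS3, ACAN and TNFAIP6 do not. Of the latter, the whole windows of ACAN, which fell, and TNFAIP6, which rose, are shown. For CD44 and HMMR the 30 bases around a match are shown. Capitals mark the motif matches.
ACAN (chr15:88803186-88803435, plus strand): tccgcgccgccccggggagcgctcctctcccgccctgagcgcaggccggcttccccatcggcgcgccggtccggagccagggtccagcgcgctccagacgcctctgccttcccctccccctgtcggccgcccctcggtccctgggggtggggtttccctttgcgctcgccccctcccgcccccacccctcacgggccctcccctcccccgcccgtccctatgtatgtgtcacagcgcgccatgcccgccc
TNFAIP6 (chr2:151357342-151357591, plus strand): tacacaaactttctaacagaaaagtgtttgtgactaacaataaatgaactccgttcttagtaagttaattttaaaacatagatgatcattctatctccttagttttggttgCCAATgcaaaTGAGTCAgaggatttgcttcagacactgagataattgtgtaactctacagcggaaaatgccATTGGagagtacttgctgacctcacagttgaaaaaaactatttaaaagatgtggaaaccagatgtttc
CD44 (chr11:35139049-35139078, plus strand): ctctgcgggctGCTTAGTCAcagcccccct
HMMR (chr5:163460595-163460624, plus strand): gtggggagaTTTGAATTTGAAaccggtagg
The ACAN window has a GC content of 77.2% and the TNFAIP6 window 34.4%. The TNFAIP6 window holds an AP-1 match from 129 to 123 bases before the start, plus 2 CCAAT matches. The CD44 match is to the antioxidant response element core on the other strand. CEMIP holds a TATA box match from 30 to 25 bases before the start. HMMR holds 2 adjoining CHR matches and 5 CCAAT matches. A match describes these letters only, and no match says only that they are not in this window.

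Most genes on a list for the supply of UDP-sugars, which hyaluronan synthesis shares with other pathways, were called higher. Of 13 genes on this list, which begins at glucose phosphorylation and ends at the UDP-sugars and their transport, all were tested, 9 rose and 2 fell. Its median log2 fold change was 0.24, beside -0.004 for all tested genes, and 84.6% of it was called, beside 45.3% of all tested genes. These shares are not matched for level. GFPT2, the lowest gene on this list, had a control mean of 19.2 CPM, whereas all tested genes include many with few reads. Changes pass more readily at higher counts, and the list was chosen with earlier results known. With upper-quartile factors, which move the median of all genes to -0.089, 7 rose and 2 fell, and 7 rose and 2 fell with DESeq2. PGM1 and the transporter gene SLC35D1 lost their higher calls in both of these fits. Without anti-MN1 replicate 2, 6 rose and 1 fell.

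UGDH, which oxidises UDP-glucose to UDP-glucuronic acid, was at 98.3 and 99.8 CPM under sdAb con and at 176 and 164 CPM under anti-MN1 sdAb. It rose 1.72-fold, with an adjusted p of 3.50e-38 in edgeR. On the N-acetylglucosamine branch, UAP1, which makes UDP-N-acetylglucosamine, was at 110 and 117 CPM and rose to 175 and 183 CPM, a 1.58-fold rise. GNPNAT1, the acetyltransferase of that branch, rose 1.43-fold from 62.9 ± 0.395 to 90.1 ± 3.95 CPM (SD, n = 2 per group), and 35.6% of its exonic bases are overlapped by genes on the other strand. HK2, a hexokinase that phosphorylates glucose, rose 1.66-fold from 72.8 ± 4.11 to 121 ± 3.20 CPM (SD, n = 2 per group). GFPT1 and GFPT2 encode the enzyme that commits sugar to this branch. GFPT1 was at 103 CPM in both groups (log2 fold change 0.00, 95% interval -0.10 to 0.10), and GFPT2 rose by 0.34 on the log2 scale, a call lost without control replicate 2 (0.29) and without anti-MN1 replicate 2 (0.28). The genes that fell were UGP2, which makes UDP-glucose, by 0.32 on the log2 scale, and NAGK, which salvages N-acetylglucosamine, by 0.26. The call of NAGK was lost without control replicate 1 and without anti-MN1 replicate 2 (-0.18 in both). GFPT1, GFPT2, UGP2, NAGK, PGM1 and SLC35D1 were named after their values were seen.

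**Figure D3:**
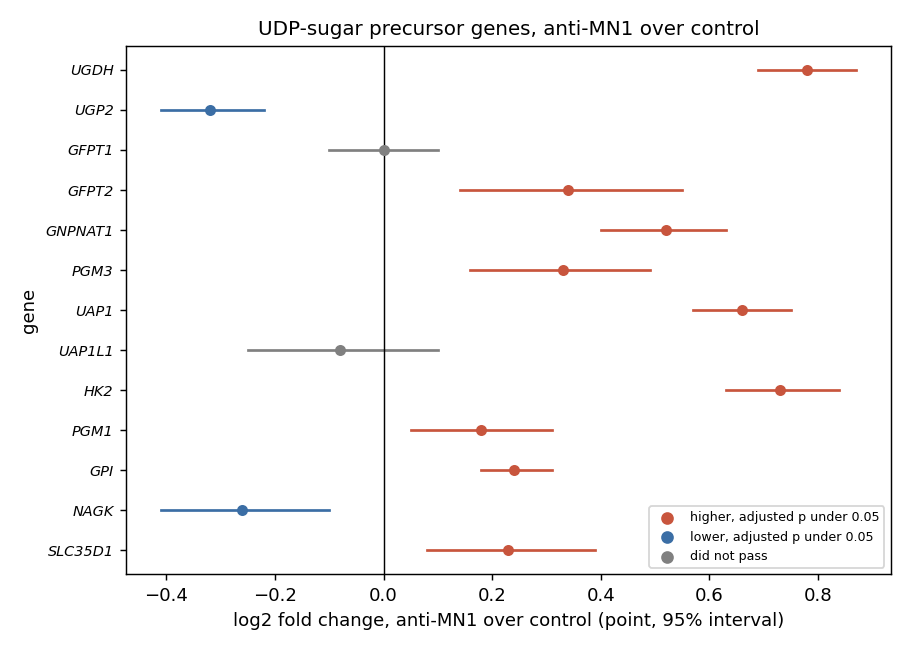
Log2 fold change of each of the 13 UDP-sugar precursor genes, anti-MN1 over control, as a point with its 95% interval, coloured by whether the adjusted p was under 0.05. UGDH at 0.78, HK2 at 0.73 and UAP1 at 0.66 are the highest.

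Genes of hyaluronan breakdown went both ways. Of 9 genes, 7 were tested, 2 rose and 2 fell, or 57.1% called, beside 45.3% of all tested genes. With upper-quartile factors 2 rose and 4 fell. CEMIP2, a relative of CEMIP described as a cell-surface hyaluronidase, had a control level of 15.2 CPM per kb, against 0.271 for CEMIP. It was at 147 and 145 CPM under sdAb con and fell to 94.7 and 89.7 CPM, a log2 fold change of -0.67 with an adjusted p of 3.45e-29 in edgeR. HYAL1, a lysosomal hyaluronidase gene, rose 1.58-fold from 4.43 CPM, but the call was lost without control replicate 1 (log2 fold change 0.67) and without anti-MN1 replicate 2 (0.42). GUSB, the lysosomal glucuronidase gene, fell by 0.26 on the log2 scale and was not called without control replicate 1, at -0.15. HYAL4 and SPAM1 had no count in any library.

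Among 8 other receptor genes, LYVE1 and TLR2 had no count, and STAB1 and STAB2 had too few to test. Of the 4 tested 1 rose and 1 fell, or 50% called, beside 45.3% of all tested genes. TLR4, an innate immune receptor that responds to hyaluronan fragments, rose 1.59-fold, from 14.5 and 15.6 CPM to 24.6 and 23.4 CPM. LAYN, the hyaluronan receptor layilin, did not pass, at 106 ± 1.51 and 111 ± 4.04 CPM. PTPRG fell by 0.24 on the log2 scale, and the call was lost without control replicate 2 (-0.20) and without anti-MN1 replicate 1 (-0.19), which leaves none of the 4 lower. ICAM1 had a log2 fold change of 0.42 and did not pass.

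Of 15 other link proteins, lecticans and binders, 8 were tested, 2 rose and 3 fell, or 62.5% called, beside 45.3% of all tested genes. HAPLN3, a link protein gene related to HAPLN1, fell from 37.2 and 35.3 CPM to 16.2 and 13.8 CPM, or -1.27 ± 0.10 (SE) on the log2 scale (adjusted p = 2.33e-25 in edgeR). Summed over the 4 link protein genes, the level was 27.91 and 27.98 CPM per kb under sdAb con and 6.997 and 5.996 under anti-MN1 sdAb. HAPLN1 stood above HAPLN3 in the controls, at 1.64 and 1.79 times its level per kb, and below it under anti-MN1 sdAb, at 0.481 and 0.507 times. The order under anti-MN1 sdAb rests on the exonic lengths used. In CPM, HAPLN1 was there at 15.4 and 13.8 and HAPLN3 at 16.2 and 13.8. PTX3, a pentraxin that works with TSG-6 in hyaluronan matrices, rose from 4.34 CPM in both controls to 15.4 and 16.2 CPM, or 3.63-fold. ITIH5, a relative of the inter-alpha-inhibitor heavy chain genes, fell 3.71-fold from 6.14 and 6.31 CPM to 1.85 and 1.49 CPM. ITIH1 and ITIH2, which encode classical heavy chains, had 0 to 2 counts per library, and the heavy chain gene ITIH3 had 1 to 8. HABP4 rose 1.58-fold, with 27.0% of its exonic bases overlapped on the other strand. The third gene that fell was the neuronal lectican gene NCAN, with 12 and 17 counts under sdAb con and 0 and 8 under anti-MN1 sdAb, a call lost in 5 of 13 alternatives, DESeq2 among them. Its log2 fold change was -1.72, and the losses included the fits without control replicate 1 (-1.90), control replicate 2 (-1.50) and anti-MN1 replicate 1 (-0.73).

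Link protein and lectican genes lie in pairs in the genome. HAPLN1 and VCAN lie tail to tail on chromosome 5 with 55501 bases between them, and HAPLN3 and ACAN tail to tail on chromosome 15 with 1933 bases between them. Both genes of the chromosome 15 pair fell, HAPLN3 at a log2 fold change of -1.27 and ACAN at -1.23, and the difference between them was not tested. In the chromosome 5 pair, HAPLN1 fell by 3.06 on the log2 scale from 122 CPM, while VCAN was near the detection limit in both groups. The brain pair HAPLN2 and BCAN on chromosome 1 was low, with 2 to 6 counts of HAPLN2 per library and BCAN at 6.27 ± 1.85 and 6.81 ± 0.411 CPM (SD, n = 2 per group), which overlap. HAPLN4, the partner of NCAN on chromosome 19, had no count, but 96.6% of its exonic bases are overlapped by other genes on its own strand, so this value is uncertain.

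The neighbours of these pairs were read from the same fit, taking all tested genes that start within 1 Mb. Around HAPLN1 and VCAN there were 6 others, of which 1 rose and 2 fell, with a median log2 fold change of -0.27. EDIL3, which encodes a secreted integrin-binding glycoprotein, fell from 327 ± 2.91 to 179 ± 4.52 CPM (SD, n = 2 per group), and EDIL3-DT, which starts beside it, fell by 2.23 on the log2 scale. TMEM167A rose by 0.33. Around HAPLN3 and ACAN there were 18 others, of which 7 rose and 3 fell, with a median of 0.09. The share called was 50% around the first pair and 55.6% around the second, beside 45.3% of all tested genes. Next to HAPLN3 lies MFGE8, a relative of EDIL3, which fell from 121 ± 2.73 to 63.4 ± 2.12 CPM (SD, n = 2 per group). NTRK3, a neurotrophin receptor gene, fell from 5.05 ± 0.670 to 0.386 ± 0.0027 CPM. It had 89 and 79 counts under sdAb con and 6 and 6 under anti-MN1 sdAb, so the small SD reflects equal low counts. ISG20, an interferon-stimulated nuclease gene, rose by 1.26 on the log2 scale. EDIL3, EDIL3-DT, TMEM167A, MFGE8, NTRK3 and ISG20 were picked from this set after their values were seen.

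**Figure D4:**
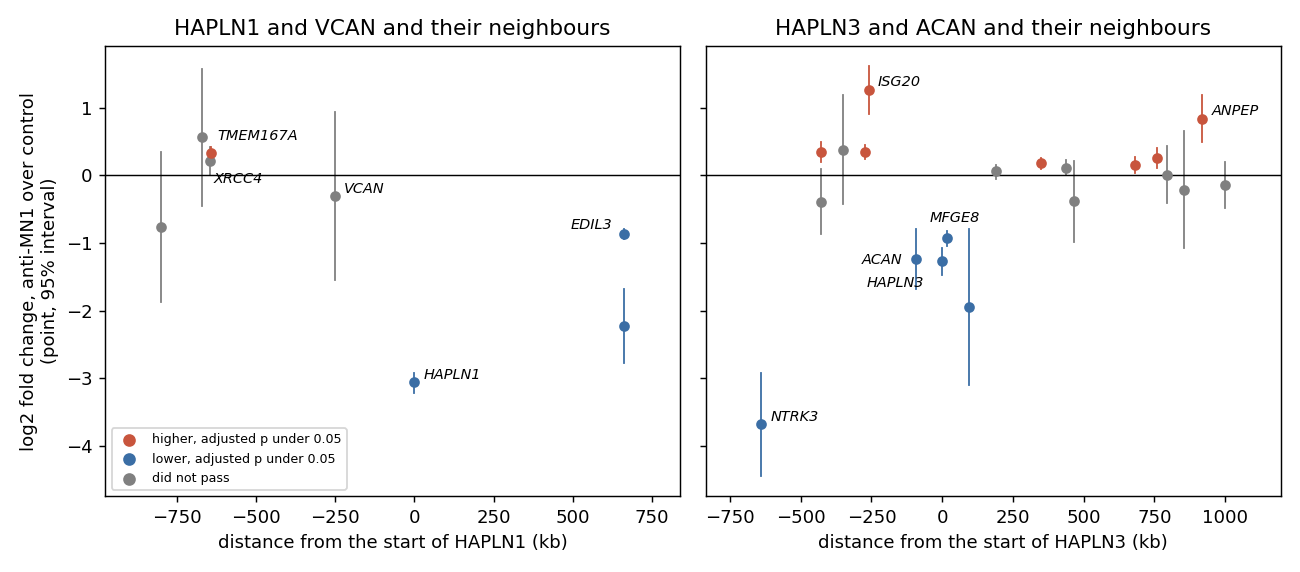
Log2 fold change with its 95% interval against distance in kb from the start of HAPLN1 (left) and HAPLN3 (right), for all tested genes that start within 1 Mb of either pair. HAPLN1 at -3.06 lies below all 7 other genes of its panel, whereas in the right panel NTRK3 at -3.68 and the pseudogene ENSG00000261549 at -1.94 lie below HAPLN3 at -1.27, ACAN at -1.23 and MFGE8 at -0.93.

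Genes that build the chondroitin sulfate chains of lecticans were tested for all 16 on the list, and 7 rose and 1 fell. The share called was 50%, near the 45.3% of all tested genes. CHST11, a chondroitin sulfotransferase gene, rose 1.67-fold from 21.4 ± 0.985 to 35.8 ± 0.205 CPM (SD, n = 2 per group). CHPF2 and CSGALNACT1, which act in chain building, rose 1.44-fold and 1.46-fold. CHST15, another sulfotransferase gene, rose 2.19-fold, from 5.40 and 8.28 CPM to 16.6 and 13.5 CPM. With upper-quartile factors 4 of these genes rose and 2 fell, and with DESeq2 4 rose and 1 fell. Of 7 lectican protease genes, 6 were tested, 1 rose and 1 fell, or 33.3% called. ADAMTS1, which cleaves aggrecan and versican, rose from 32.9 and 32.7 CPM to 69.5 and 69.1 CPM, or 2.11-fold. ADAMTS20 fell by 0.90 on the log2 scale in edgeR, a call lost in 6 of 14 alternatives, DESeq2 among them. It was lost without control replicate 1 (-0.52), anti-MN1 replicate 1 (-0.75) and anti-MN1 replicate 2 (-1.05). ADAMTS15 and ADAMTS8 did not pass, at log2 fold changes of -0.24 and -0.54.

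Of 13 genes for CD44 partners, sheddases and splicing, 12 were tested, 2 rose and 4 fell. Here 50% were called, near the 45.3% of all tested genes. MMP14, a membrane protease that can cut CD44, fell from 79.8 ± 4.11 to 44.9 ± 4.73 CPM (SD, n = 2 per group). Of the linkers between CD44 and actin, MSN rose by 0.28 on the log2 scale and EZR fell by 0.22. ESRP2, a splicing regulator of CD44 variant exons, rose 1.52-fold from 15.6 ± 0.508 CPM, while its relative ESRP1 had 1 to 9 counts per library. Of 14 spindle and mitosis genes chosen as company for HMMR, 4 rose and 5 fell, or 64.3% called, beside 45.3% of all tested genes. Their median log2 fold change was -0.04. The split depended on the scaling, with 2 higher and 8 lower under upper-quartile factors and under library totals alone. On the log2 scale, TOP2A fell by 0.38 and BUB1 by 0.26, while PLK1 rose by 0.35 and DYNLL1 by 0.30. Reads of PLK1 may be shared, since 12.5% of its exonic bases are overlapped on the other strand.

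Over the 97 genes of all these lists without the 9 members, 80 were tested, 28 rose and 19 fell, or 58.8% called, beside 45.3% of all tested genes. TMM scaling put 59.6% of these calls on the higher side, and upper-quartile factors 43.8%, with 21 higher against 27 lower. Over all tested genes the same scaling took the share of higher calls from 52.3% to 38.0%.

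The genes nearest to HAPLN1 in pattern were SHOC1, IGFBP5 and BMP4, at distances of 0.18, 0.22 and 0.39. The distance is Euclidean, over the 4 libraries, between log2 CPM values centred on the control mean, among 11013 protein-coding genes averaging 5 CPM or more. Those nearest to TNFAIP6, the called member with the highest fitted rise (1.30, with an interval that includes the 1.12 of CD44), were MICB, LPXN and SPHK1, at 0.12, 0.13 and 0.16. With 4 libraries in 2 groups this likeness reflects mainly the size of the group difference.

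The libraries held 15740268 and 16816893 counts for the controls and 16075169 and 15970324 for the anti-MN1 sdAb, and replicates differed beyond sampling noise. Of 10 osteoblast and osteosarcoma markers, SP7 and IBSP had no count, BGLAP and COL1A2 had at most 6 counts per library, while RUNX2, SPARC and COL1A1 were expressed. For BGLAP, 33.4% of exonic bases are overlapped by other genes on its own strand, so its count may be too low. Markers of several cell types were called lower beside the falls of HAPLN1 and ACAN. Of those tested, the share called was 66.7% for osteoblast and osteosarcoma, 77.8% for chondrocyte and 75% for endothelial markers. It was 50% for fibroblast and for epithelial markers. Over all tested genes 45.3% were called, and 21.6% were lower. Of the osteoblast and osteosarcoma markers 6 were tested, 0 rose and 4 fell, and their summed level was 811 and 802 CPM under sdAb con and 314 and 316 CPM under anti-MN1 sdAb. COL1A1, a collagen gene of bone, fell by 1.60 on the log2 scale, SPARC by 1.17 and RUNX2, a bone transcription factor gene, by 0.84. Of 8 fibroblast markers 0 rose and 4 fell, with a summed level of 306 and 315 against 247 and 252 CPM. COL3A1, the highest of them, did not pass, with group means of 170 and 172 CPM. Of 4 tested endothelial markers 0 rose and 3 fell, with a summed level of 9.87 and 8.68 against 6.33 and 6.65 CPM and LYVE1 at 0. Of 8 epithelial markers 2 rose and 2 fell, with a summed level of 951 and 950 against 1005 and 1030 CPM. Of 14 chondrocyte markers, which include ACAN, 9 were tested, 1 rose and 6 fell, and their summed level was 134 and 128 CPM under sdAb con and 89.7 and 96.1 CPM under anti-MN1 sdAb. COMP had no count and COL2A1 at most 5, whereas SOX9 was at 57.0 and 50.9 CPM under sdAb con and 58.3 and 62.4 CPM under anti-MN1 sdAb. The part of these markers in the falls of HAPLN1 and ACAN was not tested. All libraries come from the U2OS line, so the markers describe expression within that line. In bulk RNA, fewer cells expressing a gene and less RNA per cell cannot be told apart. Beside the rise of CD44, which blood cells also express, the summed level of the 9 blood markers was 1.43 and 1.45 CPM under sdAb con and 1.79 and 1.29 CPM under anti-MN1 sdAb. PTPRC had 5 to 11 counts, and CD3E, HBB and CD68 had 0. For CD68, 81.7% of exonic bases are overlapped by other genes on its own strand, so its 0 is uncertain.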

How the data were processed

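RNA from 4 U2OS libraries was sequenced on a NovaSeq instrument, per the labels. The authors deposited whole-number read counts per Ensembl gene without normalization, judged from their values. Bowtie2, HTSeq and hg38 (GRCh38) are named in the submitters' processing notes. Versions, annotation release and whether strand was used are not stated in the sources here, so reads of overlapping genes on opposite strands may not be told apart. Columns were matched to libraries by group letter and replicate number in the titles. All 58676 identifiers were found in GENCODE release 29 (GRCh38), which gave places and exonic lengths.

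Genes were tested in R 4.3.3 with edgeR 4.0.16: filterByExpr at its minimum count of 10, TMM factors (0.971 to 1.03), robust prior spread, and the 2-sided quasi-likelihood test without covariates, adjusted by Benjamini-Hochberg over 17524 genes. Standard errors were taken from the log2 fold change and its F statistic, and intervals are 95%. The procedure was tested on simulated data. Alternatives were other scalings and filters, DESeq2 1.42.0, limma-voom (limma 3.58.1), removal of the 20 most abundant genes, a replicate block, leaving out each library and, added after the data were seen, a non-robust prior. The test as planned did not name the robust setting. The non-robust default was run first, and the robust prior was adopted after its counts of called genes were seen to differ from those of an earlier analysis of these data, which the robust counts match. The members and lists were chosen with earlier results of these data known. From each list up to 4 tested genes with the smallest p were named, and others where stated. A breakdown gene included in the list counts is not reported here by name.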

Additional observations from a re-analysis of the deposited data

How the results depend on the processing

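HAPLN1, ACAN and CD44 kept their direction and call in all 14 alternatives, with log2 fold changes from -3.15 to -2.98, from -1.39 to -1.08 and from 1.03 to 1.14. TNFAIP6 kept its direction, and the number of members called higher was 1 to 2 when a library was left out. The signs of HAS3 and VCAN turned, with ranges of -0.67 to 0.29 and -1.18 to 0.24 when a library was left out. HMMR was called lower with upper-quartile factors (-0.18) and library totals alone (-0.17), and the cause was not tested. Of 47 wider pathway calls, 30 kept call and direction in every alternative run, and 17 lost the call in at least 1. With the non-robust prior, which was run first, 4068 genes were higher and 3658 lower, and of the wider pathway genes 27 were higher and 19 lower. The 9 members kept their side of the threshold, but the adjusted p-values of the 4 called members in edgeR were larger, at 8.6e-25 for HAPLN1 against 2.17e-99, 2.86e-21 for CD44 against 1.25e-75, 2.85e-05 for ACAN against 9.33e-07 and 0.00923 for TNFAIP6 against 0.00635. Libraries of the same replicate number showed no shared deviation (correlation of deviations -0.00308). This cannot tell whether they were prepared together. With the replicate block, 4147 genes were higher and 3732 lower, against 4153 and 3789 without it, and the 4 members kept their calls, HAPLN1 at -3.06.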
